A study of Drosophila melanogaster with 6 samples.

Results

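The mRNAs of 7 purine enzymes were followed through NELF depletion. For 1 of them, AMP deaminase, 1 of its 4 probe sets was set apart from all control arrays. The genes were chosen by annotation to purine synthesis and to the interconversion of AMP and IMP: AMPdeam, AdSS, AdSL, ras, bur, Prat and Prat2. All 7 were measured, by 10 probe sets in all, out of 11981 genes and 13643 probe sets that carry a single gene. AMPdeam was singled out because its mRNA level exceeded that of mock cells after NELF depletion, so its values in that comparison are a description and carry no test here.

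The cells were DGRC S2 cells of Drosophila melanogaster, a line grown from embryos that resembles the macrophage-like hemocytes of the fly. NELF-depleted cells had received dsRNA that targets NELF-B together with NELF-E, mock cells dsRNA against bacterial β-galactosidase, both for 96 hours, and untreated cells none. Each group had 2 Affymetrix Drosophila Genome 2.0 arrays, 6 in all, and the labels leave unsaid whether the arrays within a group stem from different cultures, so errors and p-values cover only the spread between these arrays. NELF is a protein complex that keeps RNA polymerase II paused near the start of genes, and the comparison with mock cells asks which mRNAs differ when its subunits are targeted.

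Purine nucleotides are built step by step on a ribose phosphate until IMP is reached. IMP then branches: adenylosuccinate synthetase (AdSS) and adenylosuccinate lyase (AdSL) turn it into AMP, while IMP dehydrogenase (ras, raspberry) and GMP synthetase (bur, burgundy) turn it into GMP. AMP deaminase takes AMP back to IMP, which closes a loop with AdSS and AdSL known as the purine nucleotide cycle. Prat and Prat2 both encode amidophosphoribosyltransferase, the enzyme of the first committed step of de novo synthesis, and AdSL also acts in that synthesis, before IMP.

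Levels are log2(deposited intensity + 0.819) after quantile normalization over all probe sets. Background was set at a normalized level of 3.88, the 95th percentile of the 17 tag control probe sets, and 6532 genes had a mean above it. Log2 fold changes and their standard errors (SE) come from limma fitted over all 11981 genes with a prior variance that depends on intensity, and a gene is called at a Benjamini-Hochberg adjusted p under 0.05. Both dsRNA targets were lower on the NELF-depleted arrays. NELF-B had deposited intensities of 70.0 and 47.4 in NELF-depleted, 295 and 192 in mock and 332 and 306 in untreated cells. Nelf-E had 53.5 and 43.4 in NELF-depleted, 319 and 240 in mock and 344 and 402 in untreated cells. TH1, which encodes the untargeted subunit NELF-D, had a log2 change of 0.40 (SE 0.127) over mock and was not called (limma adjusted p = 0.244). Of 12 hemocyte markers, 10 lay above background, NimC1 and Sr-CI being the exceptions, while of 11 measured markers of neurons, muscle, fat body, germline and gut only elav and Try29F did. The summed deposited intensity of the hemocyte markers ranged from 9375 to 11271 in NELF-depleted, from 7939 to 10490 in mock and from 10875 to 13345 in untreated cells. The sum is carried by the brightest markers and the single markers differed in direction. The phagocytic receptor genes drpr (-0.87, limma adjusted p = 0.00301) and eater (-0.87, adjusted p = 0.017) were called lower than in mock cells, and lower than in untreated cells as well (-0.92 and -1.11). Hml (1.23), Pxn (0.52) and ush (0.42) lay above all 4 control arrays without a call. The part of these markers in the results below was not tested. In such bulk RNA, fewer cells with an mRNA and less of it per cell cannot be told apart.

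AMPdeam mRNA read about 2-fold higher in NELF-depleted cells by its brightest probe set. This probe set, 1640932_s_at, had deposited intensities of 332.1 and 289.6 in NELF-depleted cells. In mock cells they were 171.5 and 129.0, and in untreated cells 209.9 and 235.0. Normalized log2 levels were 8.44 and 8.47 in NELF-depleted, 7.27 and 7.38 in mock and 7.45 and 7.60 in untreated cells. Both NELF-depleted arrays lay above all 4 control arrays, as did those of 11.1% of all genes. The group means were 8.45 ± 0.0221 in NELF-depleted, 7.32 ± 0.0776 in mock and 7.53 ± 0.104 in untreated cells (SD, n = 2 each). The fitted log2 fold change was 1.13 (SE 0.132, 95% interval 0.84 to 1.42) over mock, which is 2.19-fold, and 0.92 (SE 0.132, 95% interval 0.63 to 1.22) over untreated cells, or 1.90-fold. These comparisons share the NELF-depleted arrays and are not independent of each other.

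The 4 probe sets annotated to AMPdeam did not read alike. The next brightest, 1632081_s_at, was above background on all 6 arrays, with normalized levels of 5.76 and 6.94 in NELF-depleted, 4.96 and 6.05 in mock and 5.50 and 5.97 in untreated cells. Here the groups overlapped, replicate 2 was the higher array in all 3, and the replicates of each dsRNA-treated group differed by more than the group means did. Its log2 fold change over mock was 0.85 (SE 0.450, 95% interval -0.15 to 1.84), the same direction as the brightest probe set but with an interval that holds both 0 and the value of that probe set. Probe set 1631487_s_at sat at the background level and exceeded it on 4 of 6 arrays, from 3.85 to 4.38 in NELF-depleted, from 3.98 to 4.18 in mock and from 3.796 to 4.42 in untreated cells. Probe set 1636030_s_at was below background on all 6 arrays. All 4 carry the suffix _s_at, which marks probes that match more than 1 transcript, and which AMPdeam transcripts each of them reads was not analysed here.

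**Figure D1:**
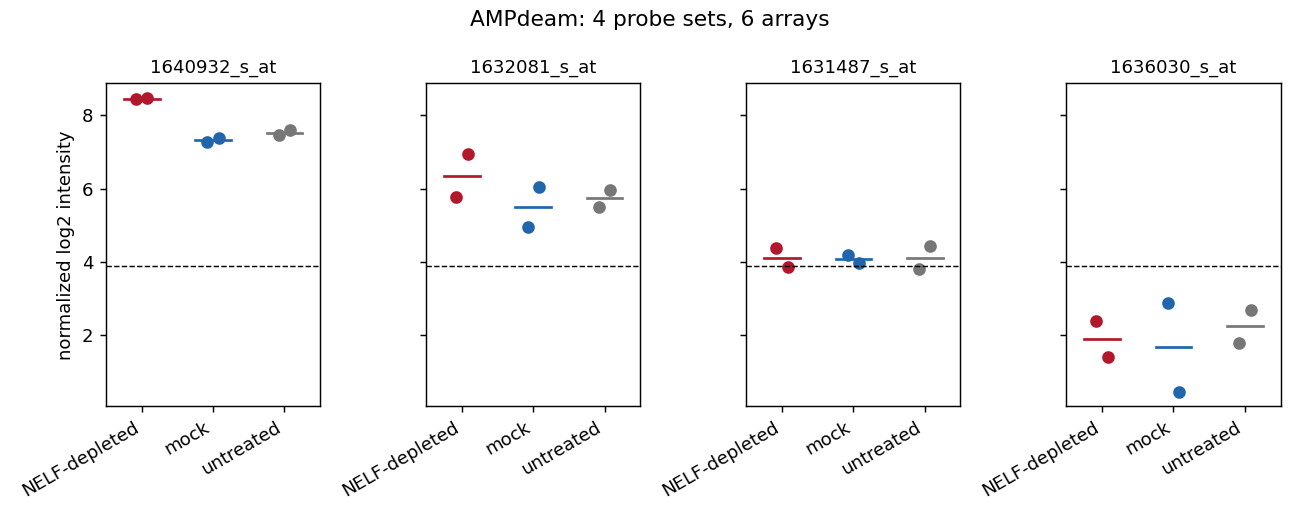
Normalized log2 intensity (vertical axis) of the 4 AMPdeam probe sets in NELF-depleted, mock and untreated S2 cells; points are single arrays, short lines are group means of 2 arrays and the dashed line is the background level of 3.88. Only the leftmost, brightest probe set shows NELF-depleted arrays (8.44 and 8.47) apart from all control arrays.

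The higher value of AMPdeam rests on 1 probe set whose replicates were tight after normalization and on a dimmer one. The dimmer one was also higher on average, but its replicates differed widely. Among the 162 genes called in NELF-depleted against mock cells, 19 had a further probe set above background. In 18 of these 19, AMPdeam among them, the further probe set moved in the same direction, ckd being the exception, and in 5 it was called too, which AMPdeam's was not. Taking the median over all 4 AMPdeam probe sets, as one of the alternative settings did, lowered the change over mock to 0.44 and that over untreated cells to 0.31, and neither was called. With each probe set fitted on its own, 1.25% of 13643 were called over mock and 1.33% over untreated cells.

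The other enzymes of the AMP loop had changes over mock close to 0. AdSS, which starts the way from IMP to AMP, had normalized levels of 11.86 and 11.90 in NELF-depleted, 11.83 and 11.91 in mock and 11.71 and 11.78 in untreated cells. The NELF-depleted arrays lay between the mock arrays, and all 4 dsRNA-treated arrays lay slightly above the untreated ones. The log2 fold change of AdSS over mock was 0.01 (SE 0.0939, 95% interval -0.20 to 0.22), an interval that leaves out changes as large as that of AMPdeam.

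AdSL, which splits adenylosuccinate to AMP and fumarate, read 7.20 and 7.28 in NELF-depleted, 7.50 and 6.94 in mock and 7.30 and 7.22 in untreated cells. The mock arrays enclosed all the others. Its log2 fold change over mock was 0.02 (SE 0.196, 95% interval -0.42 to 0.45). Without mock replicate 1 it was 0.30 and without mock replicate 2 it was -0.26, so the direction of AdSL depended on which mock array was used.

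On the GMP branch, bur had a small positive change and ras a small negative one, and neither was called. GMP synthetase mRNA (bur) read 9.25 and 9.42 in NELF-depleted, 9.08 and 9.18 in mock and 9.19 and 9.29 in untreated cells. Both NELF-depleted arrays lay above both mock arrays, which 19.8% of all genes did, but the groups overlapped with untreated cells. The log2 fold change of bur was 0.20 (SE 0.104, 95% interval -0.03 to 0.44) over mock and 0.09 (SE 0.104) over untreated cells.

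IMP dehydrogenase mRNA (ras), the enzyme that commits IMP to GMP, read 10.05 and 9.83 in NELF-depleted, 10.11 and 9.93 in mock and 10.19 and 9.98 in untreated cells. All 3 groups overlapped, and in each of them replicate 2 was the lower array. Its log2 fold change was -0.07 (SE 0.117, 95% interval -0.33 to 0.18) over mock and -0.14 (SE 0.117) over untreated cells.

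At the head of the pathway, Prat was well measured and Prat2 was not. Prat read 9.33 and 9.17 in NELF-depleted, 9.47 and 9.19 in mock and 9.31 and 9.28 in untreated cells, with a log2 fold change over mock of -0.08 (SE 0.116, 95% interval -0.33 to 0.18). The groups overlapped throughout. Its paralogue Prat2 had deposited intensities of 10.6 and 13.0 in NELF-depleted, 10.3 and 13.0 in mock and 2.96 and 19.8 in untreated cells, and its mean lay below background. The interval for Prat2 over mock ran from -1.69 to 1.99 on the log2 scale, so neither a rise nor a fall of the size seen for AMPdeam was detectable.

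**Figure D2:**
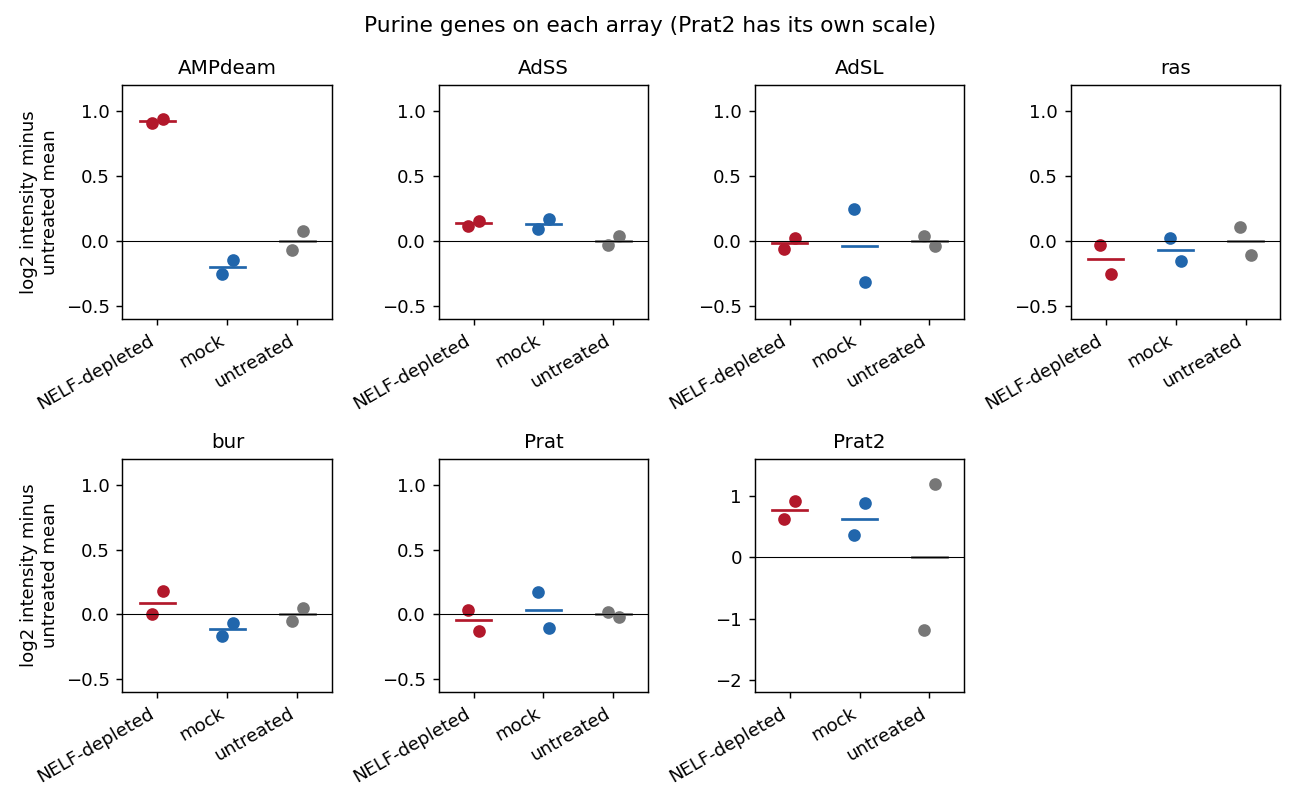
Normalized log2 intensity minus the mean of the untreated arrays (vertical axis) for the 7 purine genes in NELF-depleted, mock and untreated cells; points are arrays and short lines are group means of 2. AMPdeam has both NELF-depleted arrays apart from every control array, and Prat2, on its own wider scale, has untreated arrays of 1.83 and 4.21 before the subtraction.

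Across all genes, few were called in either comparison with NELF-depleted cells. In NELF-depleted against mock cells limma called 162 of 11981 genes, or 1.35%, with 32 higher and 130 lower, and 1 of the 7 purine genes, AMPdeam, which was chosen for this difference, so that the count of 1 is no result. Of all genes, 0.267% were called higher and 1.09% lower. Against untreated cells 169 genes were called, or 1.41% (0.234% higher and 1.18% lower), and AMPdeam was the 1 among the 7, on the same NELF-depleted arrays that chose it. The median log2 fold change over mock of the 7 genes was 0.02, against 0.01 over all genes tested, and the 5 genes above background other than AMPdeam lay between -0.08 and 0.20. With 1 prior variance shared by every gene limma called 0 genes, although 1097 genes had an unadjusted p under 0.05. With the intensity-dependent prior 1320 did. Leaving out mock replicate 1 or 2 brought the 162 calls to 79 or 74, and leaving out NELF-depleted replicate 1 or 2 to 92 or 68. Against untreated cells the 169 calls became 66 or 74 without untreated replicate 1 or 2, and 86 or 77 without NELF-depleted replicate 1 or 2.

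**Figure D3:**
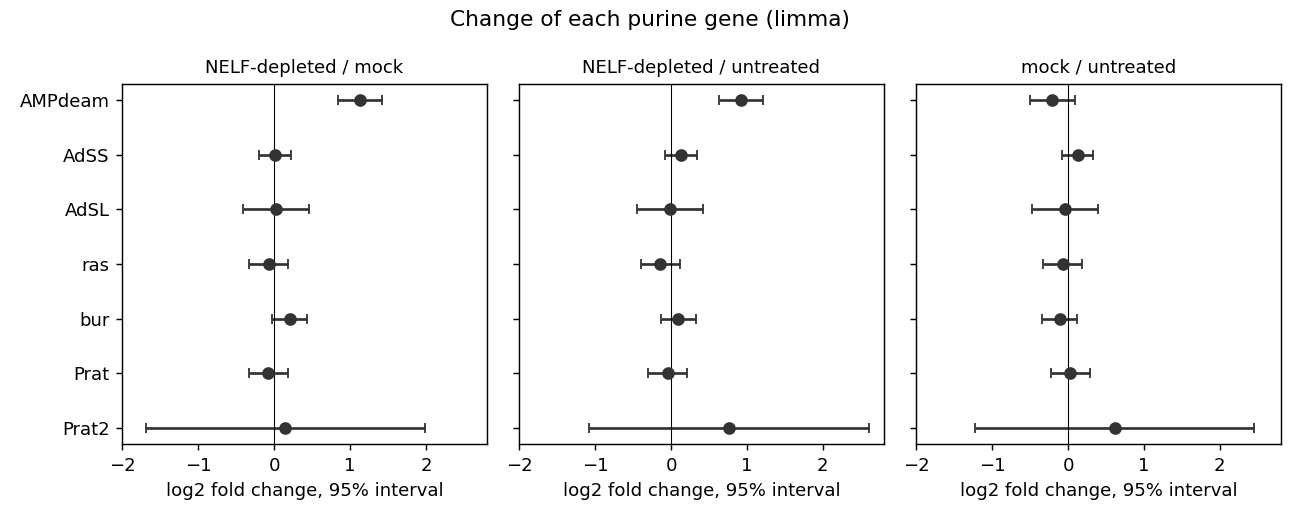
Log2 fold change (horizontal axis) of each purine gene in NELF-depleted over mock, NELF-depleted over untreated and mock over untreated cells; points are limma estimates and bars 95% intervals, from 2 arrays a group. AMPdeam (1.13 and 0.92) is apart from 0 in the comparisons with NELF-depleted cells, and Prat2 has the widest intervals.

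How arrays are put on a common scale changed the size of these values. The intensities as deposited gave 54 calls over mock, 1 higher and 53 lower, and scaling on the spiked-in hybridization controls gave 3004 calls, 17 higher and 2987 lower, with the median of all genes at -0.42. AMPdeam had a change over mock of 1.06 (SE 0.278) as deposited, not called, and of 0.70 (SE 0.148) on hybridization controls, called. Both scalings add 1 constant per array, so relative to the median of all genes AMPdeam was at 1.12 in either by construction. On hybridization controls the other genes above background had changes from -0.50 (Prat) to -0.21 (bur) over mock, and Prat and ras were called lower there and in no other setting tried. Since that scaling lowers all genes alike, genes near 0 turn negative with it: AdSS was at -0.33, AdSL at -0.42, bur at -0.21 and Prat2, below background, at -0.34. Relative to the median of all genes, AdSS stood at 0.09, AdSL at 0.01 and bur at 0.21.

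A ratio of deposited intensities within an array is unchanged by any scaling that uses 1 constant per array. Quantile normalization is not of that kind and can change it. Set to 0 at the mock mean, the log2 ratio of AMPdeam to AdSS intensity was 1.00 and 1.07 in NELF-depleted cells, against 0.01 and -0.01 in mock cells and 0.35 and 0.47 in untreated cells. That is 2.05-fold more AMPdeam per AdSS signal than in mock and 1.55-fold more than in untreated cells. Against AdSL, ras, bur and Prat the ratio was from 1.89-fold (bur) to 2.30-fold (Prat) that in mock cells, and in each case both NELF-depleted arrays exceeded all 4 control arrays. Against Prat2, which lies below background, they did not. All these ratios hold the AMPdeam values that chose the gene, so a higher ratio to any partner that changed less was given in advance, and they are a description only.

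**Figure D4:**
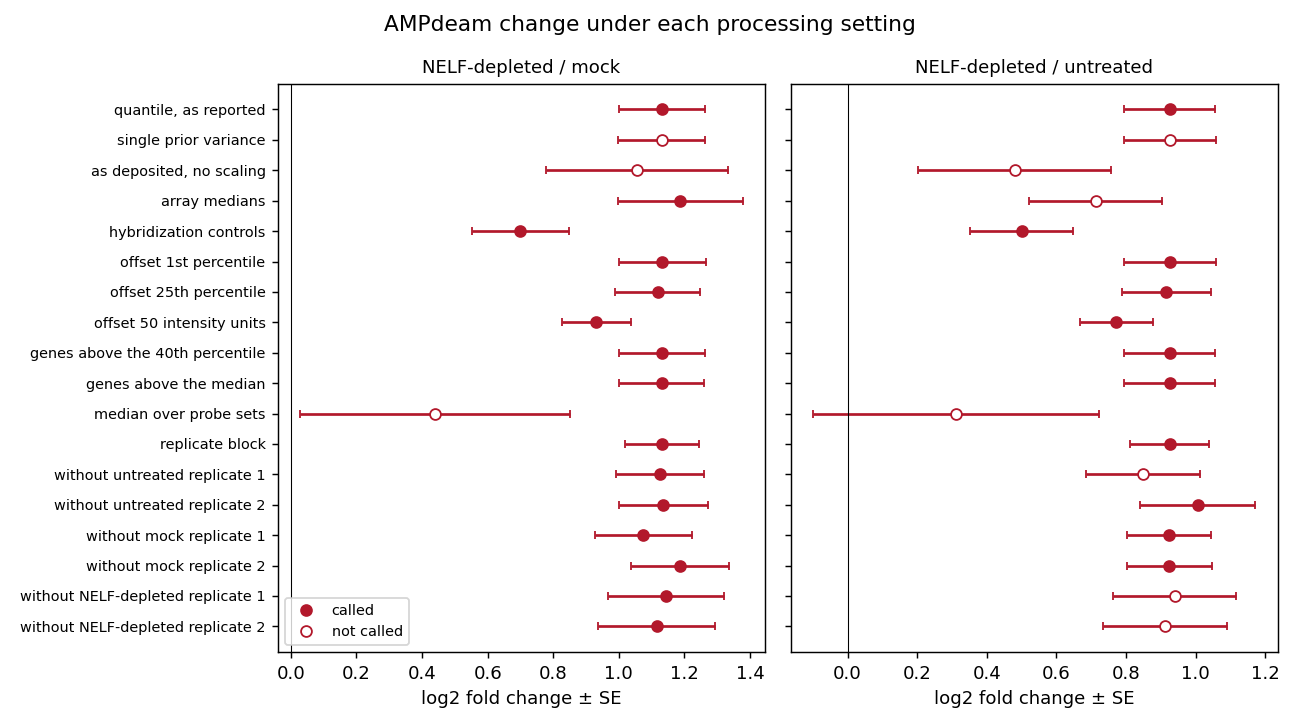
Log2 fold change of AMPdeam with its SE (horizontal axis) in NELF-depleted over mock and over untreated cells under the reported setting and 17 alternatives (rows); filled points were called and open points were not. The values describe the gene in the comparison that chose it; the median over its 4 probe sets gives the lowest, 0.44 and 0.31.

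No purine gene passed the test between mock and untreated cells. In mock against untreated cells limma called 0 of 11981 genes with either prior, with 408 unadjusted p-values under 0.05 for the intensity-dependent prior and 602 for the single one, and 0 of the 7 purine genes had one by either. AMPdeam had a log2 fold change of -0.21 (SE 0.132, 95% interval -0.50 to 0.09), with both mock arrays below both untreated arrays, as in 14.2% of genes; the mock arrays also entered the comparison that chose it. AdSS had 0.13 (SE 0.0939, 95% interval -0.08 to 0.33) with both mock arrays higher, bur -0.11 (SE 0.104), ras -0.07 (SE 0.117), AdSL -0.04 (SE 0.196) and Prat 0.03 (SE 0.116). The smallest unadjusted limma p among these 5 was 0.211, for AdSS.

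Genes elsewhere in nucleotide metabolism had lower values in NELF-depleted cells for more members than higher ones, in both comparisons. Over 8 lists of such genes, 59 were measured and 41 were above background. In NELF-depleted against mock cells 4 were called, 1 higher and 3 lower, or 6.78% of the 59 beside 1.35% of all genes. An unadjusted limma p under 0.05 was found for 13 of the 59, beside 1320 of all 11981 genes. Above background it was found for 11 of 41, beside 943 of 6532 genes. Of the 41 above background, 32 had lower values, or 78.0%, against 47.5% of all genes above background, and their NELF-depleted arrays lay below all 4 control arrays for 14, or 34.1%, against 13.9%. The median log2 fold change of the 59 was -0.11, against 0.01 over all genes. Against untreated cells, which shares the NELF-depleted arrays, 2 of the 59 were called, 1 higher and 1 lower, or 3.39% beside 1.41% of all genes. There 27 of the 41 above background had lower values, or 65.9%, against 47.6% of all genes above background. By list, the lower genes against untreated cells were 17 of 21 in salvage and interconversion and 6 of 9 in pyrimidine synthesis. They were 5 of 6 in adenosine receptor and transport, 2 of 3 in AMP-activated kinase and 2 of 3 in pterin pigments. In the other lists they were 4 of 9 in folate, 2 of 4 in de novo synthesis and 1 of 4 in purine breakdown. Leaving out mock replicate 1 brought the 4 calls to 1, and leaving out mock replicate 2 or either NELF-depleted array left 0; without either untreated array 3 were called. As deposited, with arrays centred on their medians, or with the single prior, 0 were called. On hybridization controls 25 were, all lower, beside 3004 of all 11981 genes, 2987 of them lower. That scaling moved the median of all genes to -0.42, so the direction there is no result about these lists.

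None of the other genes of de novo purine synthesis was called. Paics (ade5), which joins carbon dioxide and aspartate to the growing ring, read 9.85 and 9.95 in NELF-depleted, 10.13 and 10.21 in mock and 10.26 and 10.20 in untreated cells. Both NELF-depleted arrays were below all control arrays, but the change of -0.27 (SE 0.0915) did not pass (limma adjusted p = 0.267). Pfas (ade2) had -0.12, Gart (ade3) -0.07 and Prps, which makes the ribose donor PRPP, -0.0041, which is no direction. The median of the 4 measured genes was -0.09 over mock and -0.04 over untreated cells, where Pfas (0.04) and Prps (0.08) were above 0. CG11089, which carries the synonym atic, the final enzyme before IMP, had no probe set of its own.

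Among genes of salvage and interconversion, Aprt and Nt5b fell. Aprt, adenine phosphoribosyltransferase, which recycles adenine to AMP, read 8.61 and 8.74 in NELF-depleted, 9.17 and 9.74 in mock and 9.31 and 9.30 in untreated cells. It fell by 0.78 (SE 0.159, limma adjusted p = 0.0456) against mock, and its -0.63 against untreated cells was not called (adjusted p = 0.12). Nt5b, a 5'-nucleotidase gene, read 8.74 and 8.90 in NELF-depleted, 9.53 and 9.33 in mock and 9.54 and 9.24 in untreated cells, and fell by 0.61 (SE 0.126, adjusted p = 0.0475) against mock, while its -0.57 against untreated cells was not called (adjusted p = 0.0626). Over mock, Aprt was called in 7 and Nt5b in 8 of 17 alternative settings; both lost the call without mock replicate 2 or either NELF-depleted array, Nt5b also without mock replicate 1 and Aprt without either untreated array. Of 21 measured genes in this list, 13 of them above background, 2 fell against mock, 0 rose and the median was -0.15; against untreated cells 0 were called. The secreted adenosine deaminase gene Adgf-A (-0.49, SE 0.178), the guanylate kinase gene CG11811 (0.26, SE 0.102) and NT5E-2, which was below background, were next by p and did not pass. Of the adenylate kinases, which phosphorylate AMP to ADP, Ak3 had 0.40 (SE 0.361) and Ak1 -0.48 (SE 0.433), neither called. This pair was added after the other lists had been matched, because the names Adk1 and Adk3 belong to other genes in the current annotation.

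Folate carries the single carbons that are built into purines. Shmt, serine hydroxymethyltransferase, read 10.5 and 10.45 in NELF-depleted, 11.10 and 10.98 in mock and 11.23 and 10.90 in untreated cells. It fell by 0.57 (SE 0.116, limma adjusted p = 0.0459) against mock and by 0.59 (adjusted p = 0.0364) against untreated cells. The call held in 8 of 17 alternative settings over mock and in 7 over untreated cells; both were lost without either mock or either NELF-depleted array, and the second also without untreated replicate 1. It was the only call among 9 measured genes of this list (7 above background, median -0.12). The folate enzyme gene pug had 0.39 (SE 0.148) with both NELF-depleted arrays above all controls. Nmdmc had -0.25 (SE 0.116) with both below, and Ahcy had -0.12. None of these 3 was called.

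Among 9 pyrimidine and deoxynucleotide genes, all above background, su(r) rose. It encodes dihydropyrimidine dehydrogenase, which breaks down uracil and thymine rather than making them. Levels were 10.33 and 10.38 in NELF-depleted, 9.74 and 9.77 in mock and 9.84 and 9.74 in untreated cells, a log2 change of 0.60 (SE 0.0899, limma adjusted p = 0.00774) over mock and of 0.56 (adjusted p = 0.0111) over untreated cells. The su(r) call held in 9 of 17 alternative settings in each comparison. It was lost with the single prior, as deposited, with array medians, on hybridization controls, where the change over mock was 0.20, and without either NELF-depleted array or either array of the group compared. The next 3 by p were lower and not called: pyd3, also of pyrimidine breakdown, at -0.44 (SE 0.118), dUTPase at -0.35 (SE 0.109) and the CTP synthase gene Ctps at -0.31 (SE 0.106). The list median was -0.08.

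The remaining lists had no call in any comparison. Purine breakdown had 4 measured genes and a median of -0.03; DhpD (-0.03) and mal (-0.03) were above background, and ry, the xanthine dehydrogenase gene, and CG6106 were below it. AMP-activated kinase, the enzyme that senses AMP, had AMPKalpha at -0.12 (SE 0.0952), alc at -0.15 (SE 0.557) and SNF4Agamma at 0.05 (SE 0.138), with a median of -0.12. Of 6 adenosine receptor and nucleoside transporter genes (median -0.01), only Ent1 (0.11) and Ent2 (-0.13) were above background; AdoR and CNT1, first and second by p, were not. For the pterin pigment genes, which start from GTP, pr had -0.14 (SE 0.108), while Pu and se were below background (median 0.46 over 3 genes).

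**Figure D5:**
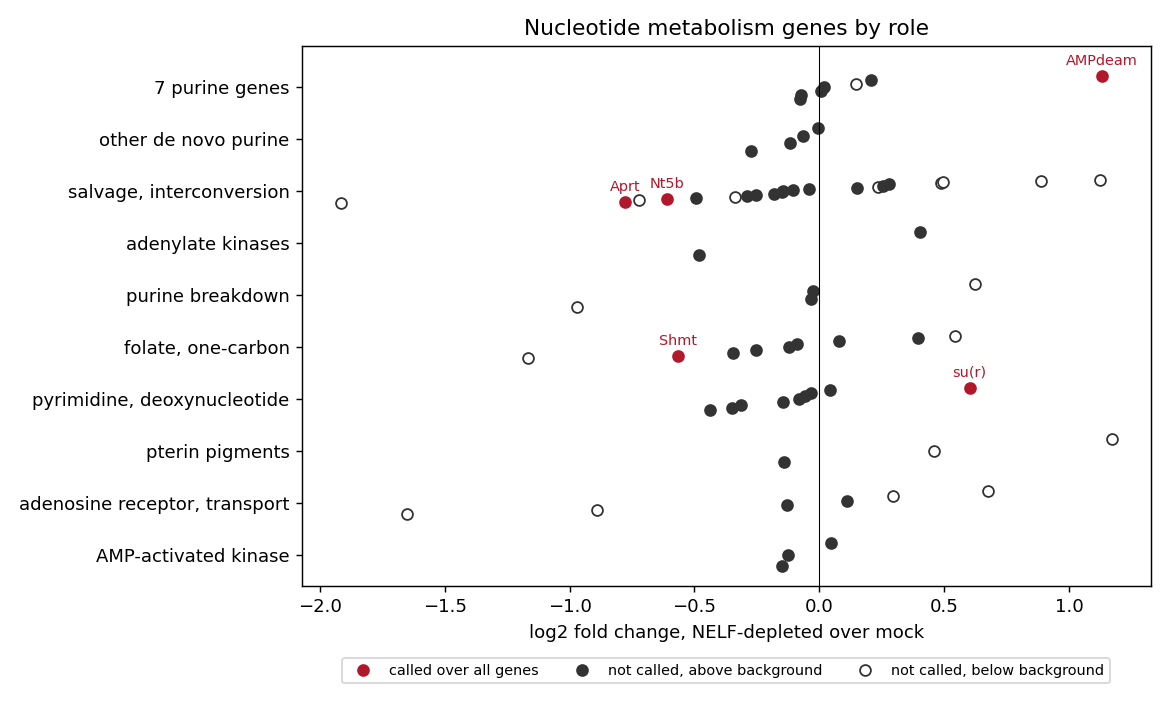
Log2 fold change in NELF-depleted over mock cells (horizontal axis) of each measured gene, by role (rows; vertical offsets within a row only separate points). Red points were called over all genes, black points were not called and open points lie below background; AMPdeam (1.13) is the highest of the points above background, and Aprt, Nt5b, Shmt and su(r) are the other calls.

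The profile of AMPdeam over the 6 arrays was compared with those of the other 6531 genes above background, by the root mean square difference of levels centred on each gene's mean. The nearest was Hml, the hemolectin gene of hemocytes, at a difference of 0.083 log2 units. It was not called over mock (1.23, SE 0.393, limma adjusted p = 0.246), with levels of 5.76 and 5.67 in NELF-depleted, 4.45 and 4.54 in mock and 4.50 and 4.80 in untreated cells. Next came CG13252 (0.101), CG2247 (0.110), CG9837 (0.137) and ckd (0.146), with log2 changes over mock of 0.92, 1.09, 0.89 and 0.83. Pearson correlations of these 5 with AMPdeam were from 0.977 to 0.995 over 6 arrays, which share their 3 groups and the array scaling. The 5 were picked for likeness on these same arrays, so high correlations and higher values over mock were given in advance. In the RefSeq annotation of Release 6 plus ISO1 MT, used only for the order of genes, no gene overlaps AMPdeam, and its nearest measured neighbours, jub and mamo, had changes over mock of -0.12 (SE 0.157) and 0.10 (SE 0.362), neither called.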

How the data were processed

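In the deposited table each of 18952 probe sets has an intensity on a linear scale for every array. Per the authors' series design text, arrays were scanned with GeneChip Operating Software 1.2.0.037 or GeneChip Command Console 1.1 and imported into Rosetta Resolver 6.0; how probes were summarised, corrected and scaled is not given in the sources used here. Medians of the arrays differed by 0.257 on the log2 scale, so log2(value + 0.819), the offset being the 5th percentile, was quantile normalized. The 183 control probe sets and those without exactly 1 gene were left out, and the brightest probe set stood for its gene. Limma 3.58.1 in R 4.3.3 fitted 3 group means over the 6 arrays (3 residual and 7.31 prior degrees of freedom, intensity-dependent prior, two-sided); probe sets were also fitted singly, an addition made after seeing the data, as were the within-array ratios of deposited intensities. Scripts were tested on simulated data. Array number limits precision.

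The purine genes, the gene lists and the choice of prior were made with earlier results of these data known. Among these was that the single prior called 0 genes, so every call in the reported setting depends on the choice of prior. AdSL and AdSS are named Adsl and Adss in the current annotation. Named genes are the 7 enzymes, both NELF targets and TH1, every called member of a list plus the 3 others of smallest p, and the 5 profiles nearest to AMPdeam. Alternatives were the single prior, 3 scalings, 3 offsets (1st and 25th percentile, 50 units), 2 filters on dim genes, the median over probe sets, a replicate block and leaving out each array.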

Additional observations from a re-analysis of the deposited data

How the results depend on the processing

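Of 354 recomputed changes of the 7 genes, 312 moved by less than the residual SD of the gene or kept their direction and call. The latter rule applied in mock against untreated cells only. The other 42 moved by more, and 0 called changes turned sign. The single prior, the filters and the replicate block leave a log2 change as it was by construction. So does the median over probe sets for a gene with 1 probe set. The 312 is therefore no measure of stability, and only AMPdeam was called in the reported setting. For AMPdeam, chosen for its higher value over mock, the settings describe how that value moves and are no support for it: it ranged from 0.44 to 1.19 over mock in 17 alternatives and passed the threshold in 14, not with the single prior, as deposited and with the median over probe sets; over untreated cells it passed in 10 of 17 (0.31 to 1.01), and not with those settings, with arrays centred on their medians, or without untreated replicate 1 or either NELF-depleted array. Leaving out 1 array gave from 1.07 to 1.19 over mock.

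Counts of called genes moved more. Over mock (162) they were 0 with the single prior, 54 as deposited, 54 with array medians, 3004 on hybridization controls, 74 with an offset of 50, 247 with genes above the median and from 68 to 126 with 1 array left out. Over untreated cells (169) they were 0 with the single prior, 2350 on hybridization controls, 89 with an offset of 50 and from 66 to 146 with 1 array left out; the split of 28 higher and 141 lower became 1 and 187 as deposited, 2 and 124 with array medians and 19 and 2331 on hybridization controls. The 4 nucleotide genes called over mock became 0 with the single prior, 0 as deposited, 0 with array medians, 25 on hybridization controls, 1 with the offset at the 25th percentile, 1 with an offset of 50 and from 0 to 3 with 1 array left out. The stricter filter tests fewer genes. What moved the counts was not tested in any of these settings. Mock against untreated stayed at 0 calls throughout.

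With the replicate number as a block 271 genes were called over mock and 270 over untreated cells, with 0 in mock against untreated, and 6 nucleotide genes over mock. Differences between replicates 1 and 2 correlated between groups at 0.145 to 0.158 over 6532 genes, but with 2 numbers and no label saying what they mark, pairing is not established. Prat2 was not tested above the median, where it has no value. Signal over background limits Prat2 and the 2 dimmest AMPdeam probe sets.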
